A study of Mus musculus with 6 samples.

Results

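Outside the Dlk1-Dio3 and Sfmbt2 clusters, 4 imprinted loci of the mouse genome each give rise to a microRNA (miRNA) hairpin described here: Mest to miR-335, Igf2 to miR-483, H19 to miR-675 and the Gnas region to miR-298. Their 8 mature miRNAs, the 5p and the 3p arm of each of the 4 hairpins, were taken from the 1978 mature miRNAs of the count tables by a rule that names them and sets no threshold on counts. The cells were mouse embryonic stem cells (library names call them E14) with the genotype Spy3-Ago2, in which AGO2, the Argonaute protein that holds miRNAs on their targets, carries the Spy3 tag. They were grown with serum and the cytokine LIF, with no treatment named in the labels, and AGO2 was pulled down with SpyCatcher3, which binds the tag covalently. Of 6 libraries, 2 hold the miRNAs and 2 the target RNAs bound to AGO2, and 2 are lysate inputs. The miRNA libraries, with 12562727 counts in replicate 1 and 22908172 in replicate 2, give the values below, and a single list of 3292 target peaks stands for the whole series. No pull-down from cells without the tag was analysed here, so a background level of AGO2-bound counts is not known, and nothing in the labels tells if replicates 1 and 2 came from different cultures, so their spread may be technical.

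At an imprinted locus only the copy inherited from one parent is active. In the mouse, Mest and Igf2 are expressed from the paternal copy and H19 from the maternal copy, and the miRNAs of the Gnas region have been reported as paternally expressed. A miRNA is cut from a hairpin in a longer transcript, and either strand of the resulting duplex can be loaded into AGO2. Bases 2 to 8 of the loaded strand, the seed, pair with target RNAs. miR-335 lies within Mest, miR-483 lies within the growth factor gene Igf2, and miR-675 is processed from H19, a long noncoding RNA, in a step known to limit placental growth in mice. The counts have no allele information, so the parent of origin of the RNA is not measured.

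The 8 mature sequences are shown because no 2 of them share a seed, which is in capitals (RefSeq, build GRCm38.p6, written 5′ to 3′).
mmu-miR-335-5p: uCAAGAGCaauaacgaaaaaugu
mmu-miR-335-3p: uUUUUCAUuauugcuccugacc
mmu-miR-483-5p: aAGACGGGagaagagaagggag
mmu-miR-483-3p: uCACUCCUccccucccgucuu
mmu-miR-675-5p: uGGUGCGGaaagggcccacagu
mmu-miR-675-3p: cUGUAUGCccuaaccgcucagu
mmu-miR-298-5p: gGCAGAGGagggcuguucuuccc
mmu-miR-298-3p: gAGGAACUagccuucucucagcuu

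All 8 names had a RefSeq sequence, as did 1679 of the 1978 names in the tables. None of the other matched names had the same bases 2 to 8 as any of the 8. Bases 2 to 7 were shared in 3 cases. miR-7646-5p shares them with miR-335-5p and had 0 counts in both libraries, as had miR-3110-3p, which shares them with miR-483-3p. miR-6986-3p shares them with miR-335-3p and had 4 and 3 counts. Each of the 8 came from 1 locus and had at least 6 mismatches to every other listed mature sequence, in ungapped alignments of at least 18 bases.

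The hairpins are shown with both mature arms in capitals, since the use of the 2 arms is described below (RefSeq, GRCm38.p6).
Mir335: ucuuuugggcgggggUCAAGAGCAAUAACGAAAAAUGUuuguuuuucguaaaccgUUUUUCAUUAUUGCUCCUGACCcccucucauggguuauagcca
Mir483: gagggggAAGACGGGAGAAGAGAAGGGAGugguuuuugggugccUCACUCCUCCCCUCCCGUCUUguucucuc
Mir675: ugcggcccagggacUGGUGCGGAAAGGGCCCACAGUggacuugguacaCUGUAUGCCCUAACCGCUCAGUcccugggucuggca
Mir298: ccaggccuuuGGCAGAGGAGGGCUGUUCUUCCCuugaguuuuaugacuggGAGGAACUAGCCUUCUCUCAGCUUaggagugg

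In GRCm38.p6, Mir335 lies at chr6:30741299-30741396 on the plus strand, within the span of Mest. Mir483 lies at chr7:142654924-142654996 on the minus strand, within the span of Igf2. Mir675 lies at chr7:142577064-142577147 on the minus strand, within the span of H19 and 77776 bases from Mir483. Mir298 lies at chr2:174267504-174267585 on the minus strand and in no annotated gene span. It is 13651 bases from the nearest end of Gnasas1, an antisense RNA of the Gnas region, and 16734 bases from that of Gnas. Mir296, a hairpin that is not among the 4, lies 378 bases from Mir298 on the same strand and is used below as its neighbour. Exons and introns were not used here.

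AGO2 held the miRNAs of Mest and of the Gnas region at over 0.1% of the library each and those of Igf2 and H19 hardly at all. The 8 miRNAs together made up 0.300% of the counts in replicate 1 (37731 counts) and 0.301% in replicate 2 (68879 counts). miR-298-5p, miR-335-3p and miR-335-5p supplied 99.9% of these counts in each library. Of the 8, 4 had at least 10 counts in both libraries, against 34.2% of all 1978 names, and 2 had a mean share of at least 0.1%, against 4.7% of all names.

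**Figure D1:**
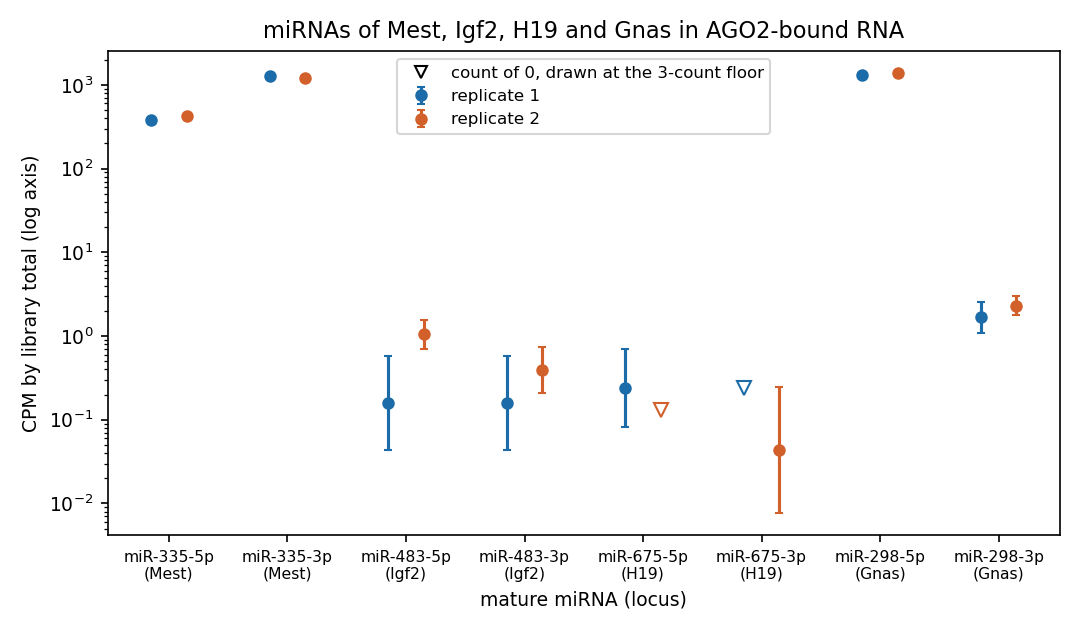
CPM (counts scaled by the library total, log axis) of each of the 8 mature miRNAs in replicate 1 (blue) and replicate 2 (orange), with 95% Wilson intervals, grouped by locus; an open triangle marks a count of 0 at the floor of 3 counts. miR-335-5p, miR-335-3p and miR-298-5p lie between 384 and 1381 CPM and the other 5 below 3.

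The 3p arm of the Mest hairpin, mmu-miR-335-3p, had 16218 counts in replicate 1 and 27484 in replicate 2. Its shares were 0.129% (0.127 to 0.131, 95% Wilson interval) and 0.120% (0.119 to 0.121). Its mean share was 0.125% ± 0.0064 (SD, n = 2, as for every mean share below). The 5p arm, mmu-miR-335-5p, which is known in human breast cancer cells as a repressor of metastasis, had 4819 counts in replicate 1 and 9677 in replicate 2. It took 0.0384% (0.0373 to 0.0395) and 0.0422% (0.0414 to 0.0431) of the libraries, with a mean of 0.0403% ± 0.0027. The 3p arm was thus the more abundant of the pair in both libraries.

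From the Gnas region, mmu-miR-298-5p was the most abundant of the 8. It had 16666 counts in replicate 1, a share of 0.133% (0.131 to 0.135), and 31631 in replicate 2, a share of 0.138% (0.137 to 0.140), and its mean was 0.135% ± 0.0038. Its partner mmu-miR-298-3p had 21 counts in replicate 1 and 53 in replicate 2, a mean share of 0.000199% ± 4.5e-05.

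miR-298-5p exceeded miR-335-3p in each library, by 1.03-fold in replicate 1 (exact 95% interval 1.01 to 1.05) and 1.15-fold in replicate 2 (1.13 to 1.17). Summed by hairpin the order was the opposite. The Mest miRNAs held 0.165% ± 0.0037 and the Gnas miRNA 0.136% ± 0.0039, a ratio of 1.26 in replicate 1 (1.24 to 1.29) and 1.17 in replicate 2 (1.16 to 1.19). Both differences between means were larger than the SD over replicates. The intervals cover counting error only.

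miR-483, which is co-expressed with Igf2 in several human tumours, was at the edge of detection. The arm mmu-miR-483-5p had 2 counts in replicate 1 and 24 in replicate 2, shares of 1.59e-05% (4.37e-06 to 5.81e-05) and 0.000105% (7.04e-05 to 0.000156). The arm mmu-miR-483-3p had 2 and 9 counts, shares of 1.59e-05% and 3.93e-05%. The Wilson intervals of miR-483-5p did not overlap between the libraries, while those of miR-483-3p (4.37e-06 to 5.81e-05 and 2.07e-05 to 7.47e-05) did. The summed share of this hairpin was 3.18e-05% in replicate 1 (1.24e-05 to 8.19e-05) and 0.000144% in replicate 2 (0.000103 to 0.000202), so the choice of library decided its level.

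miR-675 had 4 counts in all. The 5p arm, mmu-miR-675-5p, reported in mouse muscle cells to act on the DNA replication factor gene Cdc6, had 3 counts in replicate 1 and 0 in replicate 2, where a count of 0 allows a share of up to 1.31e-05%. The 3p arm, mmu-miR-675-3p, reported there to act on the BMP mediator genes Smad1 and Smad5, had 0 counts in replicate 1, which allows up to 2.39e-05%, and 1 count in replicate 2. Neither arm was above 3 counts in either library, so whether AGO2 carried miR-675 was not detectable at this depth.

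Within the imprinted domain that holds Igf2 and H19, both hairpins were thus low. The Mest miRNAs outnumbered the Igf2 miRNAs by 5259-fold in replicate 1 (exact 95% interval 2054 to 19304) and 1126-fold in replicate 2 (802 to 1636). They outnumbered the H19 miRNAs by 7012-fold in replicate 1 (2399 to 34006) and 37161-fold in replicate 2 (6669 to 1467820). The wide intervals follow from the 3 counts and the 1 count of the H19 miRNAs. The Igf2 miRNAs had 4 counts against 3 for H19 in replicate 1 and 33 against 1 in replicate 2.

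For scale, 6 listed miRNAs of liver, muscle, heart and myeloid cells were also low, though miR-675 lay below all of them in replicate 2. Markers of further lineages were not listed, so these 6 do not stand for lineage miRNAs in general. Their counts ran from 0 for miR-206-3p to 102 for miR-122-5p in replicate 1. In replicate 2 they ran from 4 for miR-206-3p to 627 for miR-122-5p. Embryonic stem cell miRNAs were abundant, with 31.1% ± 0.19 of the counts in 5 listed members of the miR-290/miR-295 cluster, which the labelled cell type is known for. The most abundant of them, miR-290a-5p, stood 182-fold above miR-298-5p in replicate 1 and 170-fold above it in replicate 2.

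In the order of mean shares, miR-298-5p took place 81, miR-335-3p place 84 and miR-335-5p place 146 of 1978. miR-298-3p took place 559, miR-483-5p place 721 and miR-483-3p place 807, which it shared with 2 other names. miR-675-5p stood at place 958, level with 7 other names, and miR-675-3p at place 1152, level with 60. There were 766 names with 0 counts in both libraries.

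**Figure D2:**
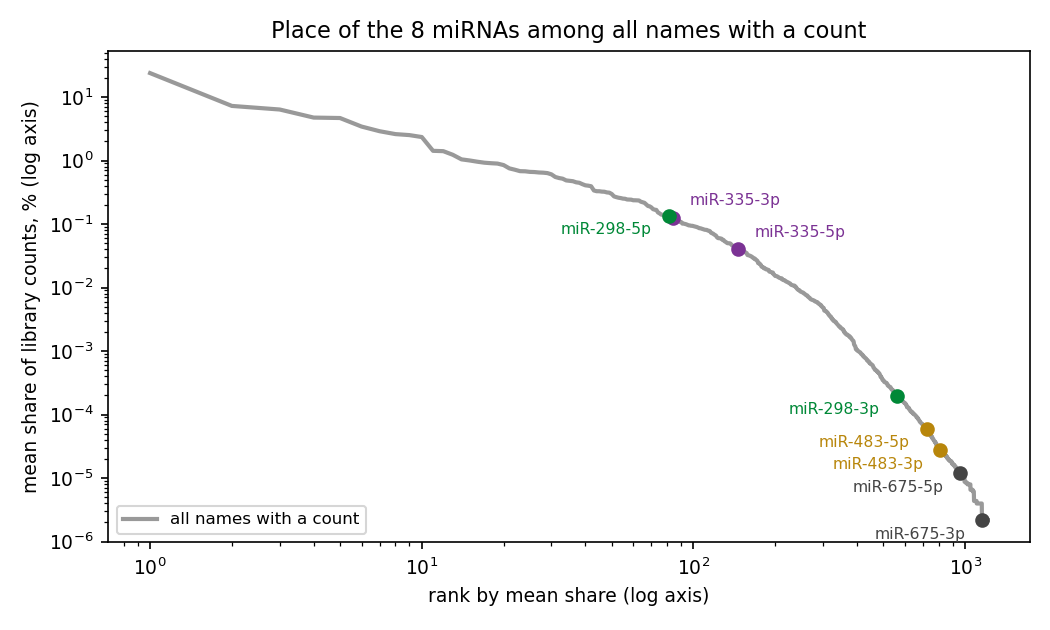
Mean share of library counts (log axis) against rank (log axis) for all names with a count, with the 8 miRNAs coloured by locus (Mest purple, Gnas region green, Igf2 ochre, H19 dark grey). miR-298-5p and miR-335-3p sit together at places 81 and 84, while both arms of miR-483 and miR-675 sit on the steep end of the curve.

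For the 4 miRNAs with at least 10 counts in both libraries, the next names in this order were close by. Measured by the distance in mean share over the 2 libraries, the nearest names to miR-298-5p were miR-466f-3p at 0.136% ± 0.011 above it and miR-99b-5p at 0.134% ± 0.0062 below. Those next to miR-335-3p were miR-466d-3p at 0.133% ± 0.0087 and miR-339-5p at 0.124% ± 0.034, and those next to miR-335-5p were miR-186-5p at 0.0412% ± 0.0034 and miR-744-5p at 0.0400% ± 0.0093. miR-298-3p stood between miR-542-5p at 0.000201% ± 4.3e-05 and miR-30c-2-3p at 0.000199% ± 2.2e-05. In all 8 of these pairs the difference between means was smaller than the larger of the SDs. The order changed between the libraries in 5 pairs. It was the same in both libraries in 3, with miR-466d-3p above miR-335-3p, miR-186-5p above miR-335-5p, and miR-298-5p above miR-99b-5p.

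The arms were used very differently by the 2 measurable hairpins. miR-335 gave mostly its 3p arm but loaded both, with 77.1% of its counts on the 3p arm in replicate 1 (76.5 to 77.7) and 74.0% in replicate 2 (73.5 to 74.4). miR-298 was almost purely 5p, with 99.87% in replicate 1 (99.81 to 99.92) and 99.83% in replicate 2 (99.78 to 99.87). The fold between the arms was 3.37 in favour of 3p in replicate 1 (exact interval 3.26 to 3.48) and 2.84 in replicate 2 (2.78 to 2.91) for miR-335. For miR-298 it was 794 in favour of 5p in replicate 1 (519 to 1282) and 597 in replicate 2 (456 to 797).

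There were 260 hairpins with both arms listed whose arms summed to 100 counts or more in both libraries. Set among them, 1 of these 2 hairpins, miR-298, had at least 90% of its counts on 1 arm, against 72.3% of all 260. miR-335, with a mean 5p share of 24.5% ± 2.2, belonged to the 72 hairpins in which neither arm reached 90%, and 9 hairpins, itself included, had a mean 5p share between 20% and 30%. Of the 260, 118 had a lower 5p share than miR-335 and 141 a higher one. For miR-298, at 99.85% ± 0.029, 233 had a lower and 26 a higher one. The neighbour miR-296, reported in mice to act on mRNAs of pluripotency factors, split its counts nearly evenly, with 55.4% on the 5p arm in replicate 1 (54.7 to 56.0) and 59.8% in replicate 2 (59.3 to 60.2). The hairpins Mir298 and Mir296 thus differed in arm use by far more than the spread between replicates, at a distance of 378 bases.

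**Figure D3:**
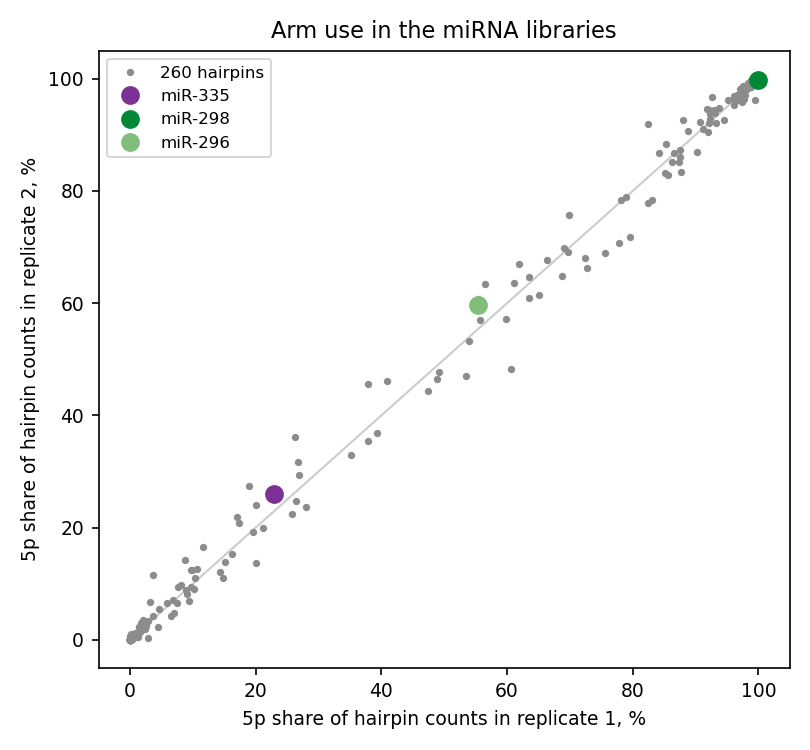
Share of each hairpin's counts on the 5p arm in replicate 2 against replicate 1 (both in %), for 260 hairpins (grey), miR-335 (purple), miR-298 (dark green) and miR-296 (light green); the line marks equal shares. miR-298 lies in the corner near 100%, miR-296 near the middle, and miR-335 at 22.9% and 26.0%.

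Arm use could not be measured for the other hairpins. miR-483 had 2 counts on each arm in replicate 1, and 24 on the 5p arm and 9 on the 3p arm in replicate 2, a 5p share of 72.7% (55.8 to 84.9). The interval in replicate 1, 15.0 to 85.0%, holds that value. miR-675 had all 3 of its counts on the 5p arm in replicate 1 and its 1 count on the 3p arm in replicate 2, with Wilson intervals for the 5p share of 43.9 to 100% and 0 to 79.3% that overlap.

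The 2 arms of miR-335 moved in opposite directions between the libraries. On the log2 scale, the share in replicate 2 over that in replicate 1 was 0.14 for miR-335-5p and -0.11 for miR-335-3p. The 5p share of the hairpin differed by 3.13 percentage points, against a median of 0.401 over the 260 hairpins and of 2.92 over the 72 hairpins that used both arms. Of those 72, 33 had a larger difference. The difference of miR-335 lay near the middle of theirs.

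The replicate ratio was 0.06 for miR-298-5p and 0.47 for miR-298-3p on the same log2 scale. By a two-sided Fisher's exact test with Benjamini-Hochberg adjustment over 677 names, 3 of the 4 tested miRNAs differed between the libraries, against 48.4% of all 677. The adjusted p was 7.84e-13 for miR-335-3p, 1.51e-07 for miR-335-5p and 8.77e-05 for miR-298-5p by this exact test, and 0.326 for miR-298-3p. The test compares these 2 libraries and not conditions, and counts this large make small differences pass it. For miR-335-3p, miR-335-5p and miR-298-5p, the ratios were below the SD of the log2 ratio among the 100 names nearest in mean share, which was 0.28, 0.29 and 0.27. For miR-298-3p that SD was 0.68, also above its ratio. Its ratio lay above the median absolute log2 ratio of its 100 nearest names, which was 0.44. The other 3 lay, in absolute value, below theirs, which were 0.14 for miR-335-3p, 0.17 for miR-335-5p and 0.14 for miR-298-5p. miR-483-5p, with 2 counts in replicate 1, was not in that test. With all 1212 names that had a count, its share was 6.58-fold higher in replicate 2, with an adjusted p of 0.0079 by the same exact test. In that wider test 329 of the 1212 names differed between the libraries.

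**Figure D4:**
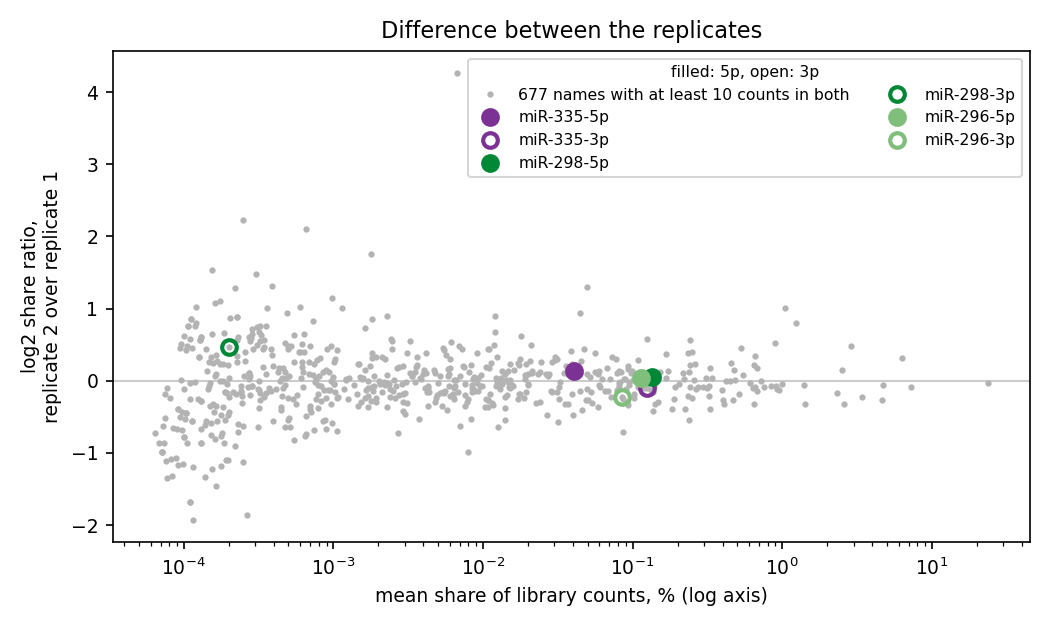
Log2 ratio of the share in replicate 2 over that in replicate 1 against the mean share (%, log axis) for the 677 names with at least 10 counts in both libraries (grey), with the 4 measurable miRNAs and both arms of miR-296 coloured by locus (filled 5p, open 3p). The abundant ones lie close to 0, between -0.22 and 0.14, and miR-298-3p lies at 0.47 within a wide scatter of rare names.

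The neighbours Mir298 and Mir296 kept a steady proportion in their 5p arms. miR-298-5p outnumbered miR-296-5p, which had 14203 and 26623 counts, by 1.17-fold in replicate 1 (exact 95% interval 1.15 to 1.20) and 1.19-fold in replicate 2 (1.17 to 1.21). By hairpin, miR-298 stood at 0.650 of miR-296 in replicate 1 and 0.711 in replicate 2, and miR-296-3p, with 11454 and 17925 counts, had a share ratio of -0.22 on the log2 scale between replicate 2 and replicate 1. The miR-296 hairpin held 0.199% ± 0.0069 of the counts, more than either the miR-298 or the miR-335 hairpin.

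The miRNAs also differed in base composition and first base. AGO2 is known from studies of the human protein to hold the first base of its guide in a pocket that favours U and A. Both arms of miR-335 begin with U, while miR-298-5p begins with G. Of 80 names with a sequence and a mean share of at least 0.1%, 41 began with U, 22 with A, 14 with C and 3 with G, and miR-298-5p was the third of those with G after miR-33-5p at 0.242% ± 0.067 and miR-409-3p at 0.235% ± 0.024. As percentages of the 80 these were 51.25% U, 27.5% A, 17.5% C and 3.75% G. Over all 1679 names with a sequence they were 40.9% U, 25.6% A, 20.7% C and 12.8% G, so A and C lay near that background. Among the major arms of 206 hairpins with at least 100 counts and a sequence, 8.74% began with G. miR-335-5p was AU-rich, with a GC content of 30.4%, and miR-335-3p stood at 36.4%. miR-298-5p stood at 65.2%, miR-675-5p at 63.6% and miR-483-3p at 61.9%, while the median of 555 names with a sequence and at least 10 counts in both libraries was 47.8%. Effects of base composition or of end sequence on adapter ligation and amplification were not tested.

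The larger imprinted clusters, which hold more names, contributed far more AGO2-bound counts in sum. The 8 miRNAs held 0.301% ± 0.00024, while the 114 names from the interval between Dlk1 and Dio3 held 8.25% ± 0.69 and the 69 names from within Sfmbt2 held 1.50% ± 0.077. The SD of the 8 is smaller than counting error (0.297 to 0.303%, Wilson interval in replicate 1) and is no measure of their steadiness. From replicate 1 to replicate 2 the Mest share fell from 0.167% to 0.162% and the Gnas share rose from 0.133% to 0.138%. At least 10 counts in both libraries were found for 4 of the 8, for 95 of the 114 and for 52 of the 69. miR-298-5p at 0.135% stood below the most abundant names of those clusters, miR-127-3p at 2.61% and miR-467d-3p at 0.251%. Names from Sfmbt2 have several near-identical copies, so that their counts may be split or pooled between copies, and no test compares the 3 groups of miRNAs, which come from the same 2 libraries.

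The peak list gave no peak in the genes of the 4 loci, of which Gnas does not span its hairpin. Mest, Igf2, H19 and Gnas had 0 peaks by midpoint, and this was also so with an overlap of at least 1 base. Of these 4 genes, 3 are protein-coding, and of all 21896 protein-coding genes 8.29% had at least 1 peak. Peaks were not called at the hairpins either, the nearest lying 194353 bases from Mir675, 251708 from Mir335, 272213 from Mir483 and 4152644 from Mir298. A share of 0 of 3 protein-coding genes says little beside that background. Of 53 listed imprinted genes, 9 had a peak, among them 7 of 45 that are protein-coding (15.6%). Igf2r, the receptor that clears the Igf2 protein, had 2 peaks, at 963 and 15013 nt from its downstream end. Peg3, a zinc finger gene, had 2, at 395 and 3519 nt from that end, and Cd81, a membrane protein gene of the Kcnq1 domain, had 2, at 231 and 86 nt from its end. Gab1, an adaptor of growth factor receptors, had 2, and Blcap and the amino acid transporter gene Slc38a4 had 1 each. Meg3, Rian and Rtl1 of the Dlk1-Dio3 region had 3, 6 and 5, with 1 peak counted in both Meg3 and Rtl1. Peaks were assigned without regard to strand, and all 5 in the span of Rtl1 lie on the plus strand, that of Meg3, opposite to which Rtl1 is known to be transcribed. Rtl1 is nonetheless counted among the 7 protein-coding genes with a peak.

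Peaks were also looked up in genes reported elsewhere as targets of the 8 miRNAs, some of them only in human cells. Igf1r, the growth factor receptor gene on which miR-675 acts in mouse placenta, had 1 peak at chr7:68227739-68227824, 5887 nt from its downstream end. Smad1, listed for miR-675-3p, had 2 peaks, 31830 and 54594 nt from its end, and Cadm1, an adhesion gene listed for miR-675 from human cells, had 3. Gdf3, a TGF-beta family gene of stem cells listed for miR-483-3p, had 1 on chromosome 6 (122606502 to 122606584). By list, a peak was found in 1 of 6 genes for miR-483, 3 of 7 for miR-675 and 0 of 2 for miR-298, against 8.29% of protein-coding genes, and no count is given for miR-335, whose list is reported only in part. Lists of 2 to 7 genes are too short to be read against that background. A peak names no miRNA, and the sequences under the peaks were not used here, so seed matches were not searched.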

How the data were processed

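The authors deposited raw counts per mature miRNA for each of the 2 miRNA libraries and 1 list of target peaks for the series. Per the submitters' processing notes, tools without a stated role were Bowtie2 2.4.2, STAR 2.5.2a, deepTools 3.1.3, UMI-tools, DESeq2 1.36.0 and cutadapt 2.10, with build mm10. The sources used here do not give the peak caller, the treatment of reads matching several miRNAs, or whether molecular identifiers were collapsed. Uncollapsed PCR duplicates would make the intervals too narrow. A row that names no miRNA held 0 counts and was left out.

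Shares are counts over the library total, with 95% Wilson intervals. The floor is 3 counts. Arm use was set against hairpins whose arms summed to 100 counts or more per library. The libraries were compared by Fisher's exact test for names with at least 10 counts in both libraries, with Benjamini-Hochberg adjustment at 0.05. Only 1 group has counts, so groups were not compared. A peak belonged to a gene if its midpoint fell in the RefSeq gene span of GRCm38.p6, the assembly of mm10, and strand came from the RefSeq promoter table where it held the gene. Clusters were taken by gene symbol within the annotated intervals. The named miRNAs were all 8, miR-296, the nearest names by mean share, names sharing a seed, and miR-290a-5p. The named genes were Mest, Igf2, H19, Gnas and the listed genes with a peak. miR-33-5p, miR-409-3p, miR-206-3p, miR-122-5p, the names sharing bases 2 to 7, miR-127-3p and miR-467d-3p were added once their values were known. A listed target gene of miR-335 is not reported here, so that list has no count. The members and lists were chosen with earlier results of these data known. The Fisher test was tried on simulated counts that held counting error only, and the arm share on a made-up hairpin. Other steps were not tried in this way. Python 3.11.15, scipy 1.17.1, pandas 2.3.3, numpy 2.4.6, matplotlib 3.10.9, R 4.3.3, edgeR 4.0.16 and, for size factors, DESeq2 1.42.0 were used.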

Additional observations from a re-analysis of the deposited data

How the results depend on the processing

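Apart from leaving out a library, 74 alternative values counted as unchanged. They stayed within the spread between replicates, within 1.5 times for counts, or, for replicate ratios, kept their sign and Fisher call. With 2 libraries, a value without 1 of them lies within that spread by construction, so those 32 values say nothing about stability. The 7 that moved came from leaving miR-290a-5p out of the library total, which raised the summed share of the 8 miRNAs to 0.394%, that of the Mest miRNAs to 0.216% and that of the Gnas miRNA to 0.178%. This follows from the smaller total, which also raised the Igf2 miRNAs to 0.000115% and the H19 miRNAs to 1.86e-05%, within their wide replicate spread. TMM-scaled library sizes and DESeq2 size factors kept the 3 Fisher calls among the 4 tested miRNAs and the sign of each of their ratios. Without the filter on low counts miR-483-5p became a call, in a test that called 329 of 1212 names. With midpoints in exactly 1 protein-coding gene, 7 listed imprinted genes had a peak in place of 9. The long noncoding RNAs Meg3 and Rian dropped out, as this setting counts protein-coding genes only, and Rtl1 stayed. The number of hairpins with at least 90% of counts on 1 arm was 258 of 380 with a minimum of 10 counts and 144 of 192 with 1000. Without one replicate, the summed share of the Igf2 miRNAs ranged from 3.18e-05% to 0.000144%, so the choice of library decided it. That of the H19 miRNAs ranged from 4.37e-06% to 2.39e-05%, on 1 and 3 counts with overlapping Wilson intervals. No paired analysis was possible because a single group of 2 libraries has counts per miRNA. Depth limits the levels of miR-483 and miR-675, whose single arms had at most 24 counts in a library.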
